A study of Mus musculus with 2 samples.

Results

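The genes for 10 amino acid transporters of the plasma membrane were compared between mouse E14 embryonic stem cells (ESCs) and E14-Sox2 TA/WT cells. The genes were taken by symbol (Slc3a2, Slc7a5, Slc7a11, Slc7a1, Slc7a3, Slc38a1, Slc38a2, Slc1a4, Slc1a5 and Slc6a9), and all 10 were among the 24532 genes of the expression table. E14 is an established mouse ESC line with wild-type Sox2. E14-Sox2 TA/WT is an E14 clone with the T258A change in one Sox2 allele, made by CRISPR/Cas9, which removes a threonine of Sox2 that can carry the sugar O-GlcNAc. Both were used in serum with leukemia inhibitory factor, but the clone had been selected and normally kept with added Mek and Gsk3 inhibitors, which were withdrawn for the experiment. The effects of genotype, of clone and of earlier culture cannot be told apart, and each genotype had 1 library of polyadenylated RNA, with 60263536 reads for E14 and 44609228 for E14-Sox2 TA/WT. Differences between the libraries could not be tested against replicates, and the 95% intervals cover the counting of reads only.

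Amino acids cross the plasma membrane through carriers of the solute carrier (Slc) families, each with its own set of substrates and its own driving force. Some carriers pump amino acids in with sodium, others exchange one amino acid for another, and a further kind is built of a heavy chain, Slc3a2, that brings one of several light chains to the cell surface. In many cells a shortage of amino acids raises the transcription factor Atf4, and several carrier genes are among its known targets. ESCs divide fast and have a high demand for glutamine, serine, glycine, threonine and leucine.

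Levels are given as TPM, transcripts scaled to nearly the same sum in each library after a correction for transcript length, which allows a comparison between genes. Sox2 itself had a TPM of 372.5 (E14) and 274.2 (E14-Sox2 TA/WT) (log2 ratio -0.44, E14-Sox2 TA/WT over E14 here and throughout). The pluripotency markers examined were present, the lowest being Klf4 (TPM 158.1 and 104.1), and the sum over all 8 was 11838 (E14) and 8670 (E14-Sox2 TA/WT). Nanog was more than 2-fold lower (526.9 and 251.3, log2 ratio -1.07). The counting interval lay wholly below no change for 6 of the 8, whereas Pou5f1 (0.03) and Esrrb (0.10) were slightly higher. Of all genes that reached a TPM of 10 in either library, 35.2% had such an interval below no change and 50.2% one above it. Markers of other cell types were lower than each pluripotency marker, but some reached a TPM of 10 and they differed between the libraries. The highest were Thy1 in E14 (TPM 40.1) and Nes in E14-Sox2 TA/WT cells (TPM 36.2). The summed TPM went from 37.4 to 9.70 for the 5 primitive endoderm markers, from 49.8 to 19.5 for the 6 fibroblast markers, from 7.52 to 39.6 for the 5 mesoderm and trophectoderm markers and from 17.5 to 82.6 for the 4 neural markers. The fibroblast markers did not go one way: Thy1 (40.1 and 11.4) and Pdgfrb (6.75 and 2.85) were lower, and Postn had no reads. The collagen genes Col3a1 (15 and 151 reads) and Col1a2 (43 and 109 reads) were higher. A further collagen gene, Col1a1, differed little (497 and 370 reads, TPM 2.66 and 2.95). The part of all these markers in the transporter differences below was not tested, and in bulk RNA a change in the share of cells of one kind cannot be told apart from a change of RNA per cell.

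Of the 10 transporter genes, 9 reached a TPM of 10 in at least 1 library, the filter of the study, and Slc7a11 did not. The most abundant in E14 were the heavy chain gene Slc3a2 (TPM 280.6) and the light chain gene Slc7a5 (243.2), followed by Slc38a2 (146.7) and Slc1a5 (117.8). Slc7a3 (68.3), Slc1a4 (58.9), Slc7a1 (54.7) and Slc38a1 (48.0) formed a middle group, and Slc6a9 (14.3) and Slc7a11 (0.243) came last. In E14 the counting intervals of neighbours in this order did not overlap. In E14-Sox2 TA/WT cells the order was Slc7a5 (224.9), Slc38a2 (177.7), Slc3a2 (170.9), Slc7a3 (62.2), Slc38a1 (56.4), Slc1a5 (50.1), Slc7a1 (48.2), Slc1a4 (23.9), Slc6a9 (6.91) and Slc7a11 (0.0571). Slc1a5 and Slc7a1 could not be ordered there within counting error, whereas the other neighbours were apart. Slc3a2 moved from rank 1 to rank 3 and Slc1a5 from rank 4 to rank 6.

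**Figure D1:**
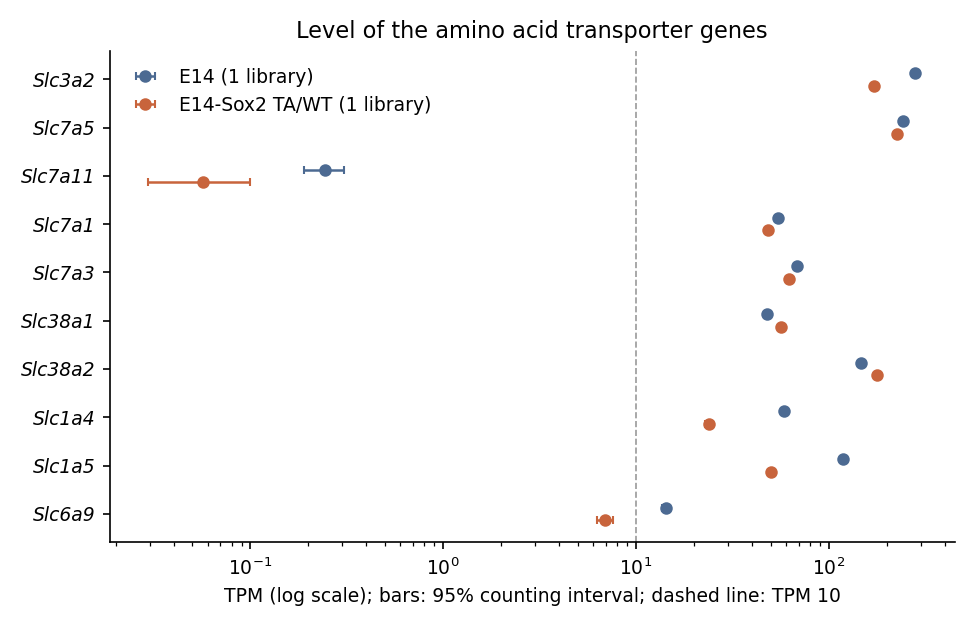
Level of each transporter gene in TPM (log axis) in the single library of E14 and of E14-Sox2 TA/WT cells, with 95% counting intervals. Slc1a4 and Slc1a5 lay well to the left in E14-Sox2 TA/WT cells, Slc38a1 and Slc38a2 slightly to the right (for Slc38a1 not once a trend on GC content and length was removed), and Slc7a11 was under a TPM of 1 in both libraries.

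In E14-Sox2 TA/WT cells, expression was downregulated more than 2-fold for 3 of the 9 genes past the filter (Slc1a4, Slc1a5 and Slc6a9) and more than 2-fold higher for none of them. Among all 9094 genes past the filter, 4.07% were more than 2-fold lower and 4.17% more than 2-fold higher. In a wider count, the counting interval lay wholly below no change for 7 of the 9 genes and wholly above it for 2 (Slc38a1, whose sign changed once a trend on GC content and length was removed, and Slc38a2), against 35.2% and 50.2% of all genes past the filter. The median log2 ratio over the 10 genes was -0.45 (-0.49 to -0.41, counting only). The median was 0.04 over the 13269 genes whose mean TPM was 1 or more, and 0.08 over the 9094 genes past the filter. Slc7a11 belongs to neither of these larger sets. Over the 9 transporter genes past the filter, as over the 9094, the median was nearer to no change, at -0.18 (Slc7a1). The median of the 10 genes lies in a gap, between -0.71 (Slc3a2) and -0.18 (Slc7a1), so it describes no single gene. That median was -0.21 with a pseudocount of 1, which brought Slc7a11 to -0.23. The summed TPM of the 10 genes was 1033 for E14 and 821.2 for E14-Sox2 TA/WT.

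**Figure D2:**
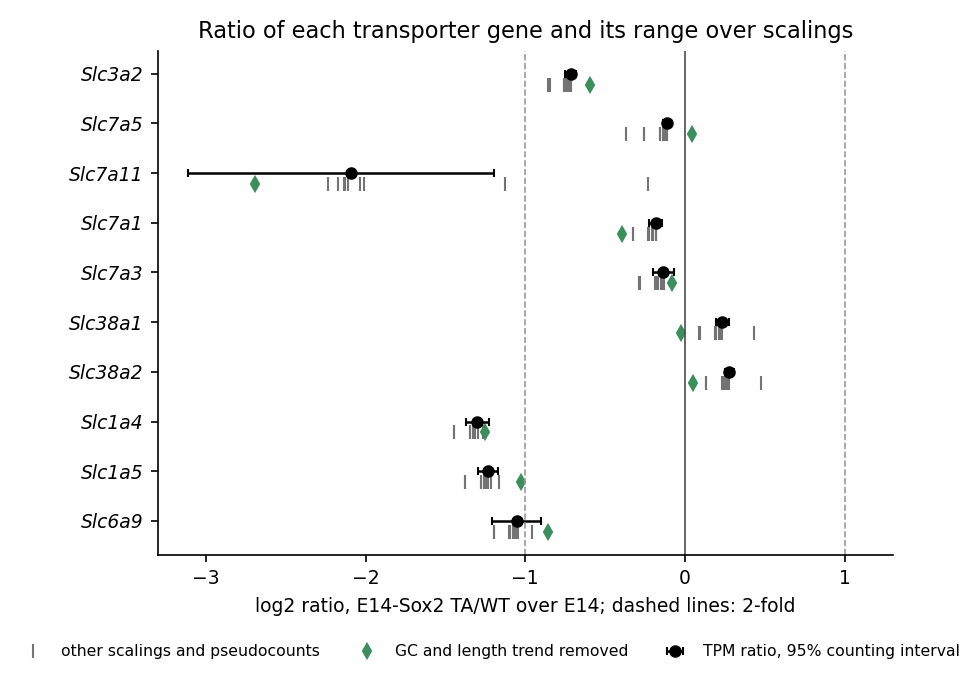
Log2 ratio of E14-Sox2 TA/WT over E14 for each gene, from TPM with its 95% counting interval (black) and under other scalings and pseudocounts (grey bars) or with a trend on GC content and length removed (green). Slc1a4 and Slc1a5 stayed beyond 2-fold lower under each of these, Slc6a9 lay at the 2-fold line, and Slc7a5 and Slc38a1 crossed 0 with the trend removed.

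The neutral amino acid exchangers Slc1a4 and Slc1a5 showed the clearest differences among the well-expressed genes. Slc1a4 (Entrez gene 55963, chr11:20302180-20332713, GRCm38) encodes a sodium-dependent exchanger of alanine, serine, cysteine and threonine. It had 7282 reads in the E14 library and 1980 in the other, with a TPM of 58.9 and 23.9. The log2 ratio was -1.30 (-1.37 to -1.23), and 2.44% of the genes past the filter had a lower one. Slc1a5 (Entrez gene 20514, chr7:16781334-16798274) encodes a related exchanger, known above all for glutamine. Its reads went from 10234 to 2917 and its TPM from 117.8 to 50.1, a log2 ratio of -1.23 (-1.29 to -1.17). The 2 genes lie on different chromosomes and kept nearly the same proportion to each other, with 2.001 times as much Slc1a5 as Slc1a4 in E14 and 2.098 times as much in E14-Sox2 TA/WT cells.

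Slc6a9 (Entrez gene 14664, chr4:117835258-117869305) encodes a glycine transporter driven by sodium and chloride. It fell from 1479 to 477 reads and from a TPM of 14.3 to 6.91, and it passed the filter through the E14 library only. The log2 ratio of -1.05 had an interval from -1.21 to -0.90, so a difference of less than 2-fold was not resolved from one of more at this depth, and the ratio was -0.86 once the trend on GC content and length was removed. The end of the gene overlaps the annotated span of Ccdc24 (225 and 117 reads), and the handling of strand is not stated.

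The heteromeric carriers were uneven. Slc3a2 (Entrez gene 17254, chr19:8706882-8723369) encodes the heavy chain, which carries no amino acid itself. It had 23055 reads in the E14 library and 9516 in the other, and its log2 ratio was -0.71 (-0.75 to -0.68), lower but short of 2-fold. Slc7a5 (Entrez gene 20539, chr8:121881146-121907686) encodes the light chain that brings in leucine and other large neutral amino acids. With 26907 and 16672 reads it had a log2 ratio of -0.11 (-0.14 to -0.08), and its direction is not settled, since the ratio was 0.047 with the GC and length trend removed. It also lies on a chromosome whose genes were higher as a whole, with a median of 0.26 over 723 genes of chromosome 8, and relative to that median its ratio was -0.37. The library of E14 thus held 0.867 Slc7a5 transcripts for each Slc3a2 transcript, and that of E14-Sox2 TA/WT cells held 1.32.

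Slc7a11 (Entrez gene 26570, chr3:50364936-50499087) encodes the light chain that takes up cystine, the source of cysteine for glutathione, in exchange for glutamate. It was close to silent in both libraries. Over a transcript of 9223 bases E14 had 71 reads (TPM 0.243, 0.190 to 0.307) and E14-Sox2 TA/WT cells had 12 (TPM 0.0571, 0.0295 to 0.0997). Although the log2 ratio was the lowest of the 10 genes at -2.09, its interval was wide (-3.11 to -1.20), and a pseudocount of 1 brought it to -0.23.

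The cationic amino acid transporters differed little. Slc7a1 (Entrez gene 11987, chr5:148327410-148399904) and Slc7a3 (Entrez gene 11989, chrX:101079146-101090452) encode related carriers of arginine, lysine and ornithine. Slc7a1 had 12374 and 7296 reads, with a TPM of 54.7 and 48.2 and a log2 ratio of -0.18 (-0.23 to -0.14). For Slc7a3 the reads were 4942 and 2994, the TPM 68.3 and 62.2 and the log2 ratio -0.14 (-0.20 to -0.07). Both were lower in E14-Sox2 TA/WT cells under every scaling tried, by at most 0.39 and 0.29 on the log2 scale. Slc7a3 was the more abundant of the pair in both libraries, 1.25 times as high in E14 and 1.29 times as high in E14-Sox2 TA/WT cells. The span of Slc7a3 overlaps that of Snx12 (2670 and 1884 reads), so the assignment of reads between them is uncertain.

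The sodium-coupled carriers Slc38a1 and Slc38a2 went the other way from the exchangers, although all 4 proteins carry small neutral amino acids. Slc38a2 (Entrez gene 67760, chr15:96687392-96699728), a gene known to respond to amino acid shortage, had 21383 and 17359 reads, a TPM of 146.7 and 177.7 and a log2 ratio of 0.28 (0.25 to 0.31). Its neighbour Slc38a1 (Entrez gene 105727, chr15:96571418-96643438) had 11066 and 8732 reads, a TPM of 48.0 and 56.4 and a log2 ratio of 0.23 (0.19 to 0.27). Both differences were small and depended on the scaling. Chromosome 15 as a whole was lower (median -0.20 over 547 genes), and relative to it the ratios were 0.48 and 0.43, while removal of the GC and length trend left 0.047 for Slc38a2 and -0.028 for Slc38a1. The span of Slc38a1 holds an annotated non-coding gene, Gm32457, whose reads could not be set apart. Their transcripts hold 43.9% and 48.5% G and C, against 52.9% for Slc1a4, 56.5% for Slc1a5 and 57.0% for Slc6a9. The summed TPM of Slc38a1 and Slc38a2 was 1.10 times that of Slc1a4 and Slc1a5 in E14 (194.7 and 176.7) and 3.16 times in E14-Sox2 TA/WT cells (234.1 and 74.0).

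A further gene of the same region, Slc38a4 (chr15:96994816-97055956), was described beside these neighbours. It encodes another sodium-coupled carrier of neutral amino acids and is imprinted in the mouse. Slc38a4 had 31855 and 13806 reads, a TPM of 257.2 and 166.4 and a log2 ratio of -0.63. Its level in E14 lay between those of Slc3a2 and Slc7a5.

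Promoter sequences are shown for 4 of the genes because some carrier genes of the Atf4 pathway are known to hold a short amino acid response element. The element need not lie close to the start, and the sequences show only whether it occurs there. RefSeq promoter windows (GRCm38.p6, 250 bases before to 50 bases after a transcript start) matched 6 of the 10 genes, in 9 windows: Slc7a11, Slc1a4, Slc3a2, Slc38a2, Slc7a1 and Slc6a9. The element was searched as TGATGNAA on both strands. It was found in windows of 2 of the 6 genes, beside 4.51% of all 27025 genes with a window and 3.97% of the 32851 windows. Slc7a11 has 2 copies in opposite orientation, from -66 to -59 and from -47 to -40, and Slc1a4 has 1 on the reverse strand from -4 to 4 (the first transcribed base is 1). The 110 bases shown run from 100 before the start to 10 after it, 5′ to 3′ on the strand of the gene, with matches in capitals. They lie on the minus strand at chr3:50443604-50443713 (Slc7a11), chr11:20332704-20332813 (Slc1a4), chr19:8713888-8713997 (Slc3a2) and chr15:96699719-96699828 (Slc38a2).
Slc7a11: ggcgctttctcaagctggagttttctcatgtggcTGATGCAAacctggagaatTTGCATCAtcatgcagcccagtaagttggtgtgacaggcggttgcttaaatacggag
Slc1a4: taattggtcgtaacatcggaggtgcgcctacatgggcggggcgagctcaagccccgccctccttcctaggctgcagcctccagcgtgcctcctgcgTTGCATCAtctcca
Slc3a2: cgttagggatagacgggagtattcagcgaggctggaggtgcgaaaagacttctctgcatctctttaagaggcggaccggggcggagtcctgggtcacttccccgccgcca
Slc38a2: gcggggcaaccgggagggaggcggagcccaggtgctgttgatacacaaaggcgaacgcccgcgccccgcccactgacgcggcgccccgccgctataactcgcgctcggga

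Slc1a5, Slc7a5, Slc7a3 and Slc38a1 were not searched, and the windows of Slc3a2, Slc38a2, Slc7a1 and Slc6a9 held no match. A match describes these letters in this window only, and binding was not measured. Sequence outside the windows was not searched, so a window without a match does not mean that the gene lacks the element. The core of the antioxidant response element, searched as TGACNNNGC on both strands, was found in windows of Slc6a9, Slc7a1 and Slc38a2, 3 of the 6 genes, beside 14% of all genes and 12.4% of all windows. No window of the 6 genes held both elements.

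Genes of the Atf4 pathway were examined next, from a list of 18 regulators and targets that holds none of the 10 transporters. All 18 passed the filter, and 10 of them were downregulated more than 2-fold in E14-Sox2 TA/WT cells, beside 4.07% of all genes past the filter. None was upregulated to that extent, beside 4.17% of all genes past the filter. The median log2 ratio of the 18 genes was -1.18, beside 0.08 over all genes past the filter. Atf4 itself had a TPM of 747.8 and 279.4 (log2 ratio -1.42), and Asns, the asparagine synthetase gene, had the highest level of the list (TPM 979.4 and 363.2, -1.43). The lowest ratios were those of Nupr1 (-3.47), Ddit3 (-2.62), Chac1 (-2.58), which encodes an enzyme that breaks down glutathione, and Trib3 (-2.26). Cebpb (-1.97), Ddit4 (-1.74), Atf3 (-1.31) and Atf5 (-1.05) completed the 10. Of the 10, Cebpb (TPM 15.3 and 3.90) and Atf3 (14.8 and 5.98) passed the filter through the E14 library only. Eif2ak1, one of the kinases upstream of Atf4, was highest at 0.45.

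Cystine use and glutathione synthesis were covered by 10 genes, all past the filter. Of these, 2 were more than 2-fold lower and none was more than 2-fold higher, beside 4.07% and 4.17% of all genes past the filter. Cth, the enzyme that makes cysteine from cystathionine and so supplies it without uptake of cystine, had a TPM of 228.4 and 70.9 (log2 ratio -1.69). Gpx4, a glutathione peroxidase that protects membrane lipids, had the highest level (TPM 1732 and 764.8, -1.18). Gsr, the glutathione reductase, was highest at 0.69. The median of the list was -0.17, beside 0.08 over all genes past the filter.

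Of 38 other amino acid transporters of the plasma membrane, only 6 passed the filter and 8 had no reads in either library. Of those 6, Slc7a7 alone was past 2-fold, and it was higher, as were 4.17% of all genes past the filter. Slc7a7 encodes a light chain of Slc3a2 that exports cationic amino acids in exchange for neutral ones. Slc7a7 had 5030 reads in the E14 library and 8110 in the other, with a TPM of 73.5 and 175.8 and a log2 ratio of 1.26 (1.21 to 1.31). Slc38a4 had the highest level of these genes in E14, and Slc7a7 in E14-Sox2 TA/WT cells (TPM 175.8, beside 166.4 for Slc38a4). Slc38a3 had the lowest ratio among those past the filter (-0.69), which it passed through the E14 library only (TPM 10.7 and 6.62). Below the filter, and named after their values were seen, Slc1a1 (542 and 124 reads, log2 ratio -1.56), Slc6a7 (340 and 96 reads, -1.26) and Slc38a8 (158 and 4 reads, -4.72) were lower and Slc6a15 (369 and 646 reads, 1.39) was higher. These are examples only. Without a filter, 13.8% of all genes were more than 2-fold lower and 7.48% more than 2-fold higher. The glutamate transporter gene Slc1a7 had 157 reads in the E14 library and 0 in the other, which is at least 38.7-fold lower per read of depth against a floor of 3 reads in the library.

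**Figure D3:**
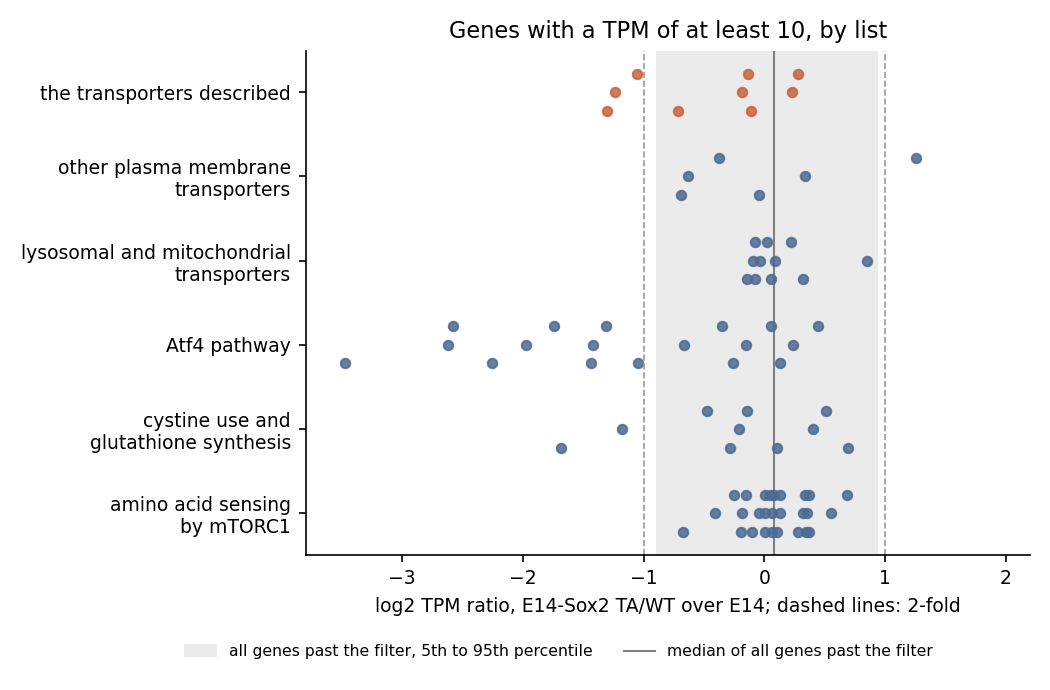
Log2 TPM ratios of the genes past the filter, 1 point a gene, for the transporters described, the other transporter lists and 3 related pathways, with the 5th to 95th percentile of all genes past the filter (-0.89 to 0.94) shaded. The transporters described, the Atf4 pathway and the cystine and glutathione genes (Cth and Gpx4) reached beyond 2-fold lower, and Slc7a7 is the single point past 2-fold higher.

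Because Slc7a7 shares its heavy chain with Slc7a5 and Slc7a11, the light chain partners of Slc3a2 (Slc7a5, Slc7a6, Slc7a7, Slc7a8, Slc7a10 and Slc7a11) were summed, a step chosen after the values were seen. Their summed TPM was 367.8 for E14 and 463.6 for E14-Sox2 TA/WT, while that of Slc3a2 was 280.6 and 170.9. The sum per Slc3a2 transcript was thus 1.31 and 2.71. Slc7a5 made up 66.1% of the light chain transcripts in the E14 library and 48.5% in the other, Slc7a7 19.98% and 37.9%, and Slc7a6 13.3% and 13.4%. Slc7a8, Slc7a10 and Slc7a11 together stayed under 1% in both. These are transcript levels, and the amount of each protein at the membrane was not measured.

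**Figure D4:**
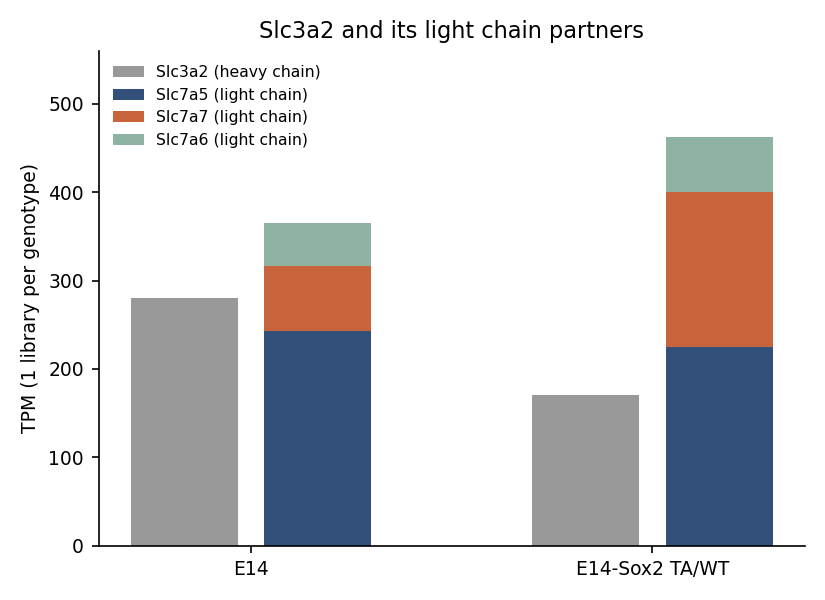
TPM of Slc3a2 (grey) beside the stacked TPM of its 3 abundant light chain partners in the single library of each genotype. The stack exceeded Slc3a2 in both libraries, by more in E14-Sox2 TA/WT cells, where Slc7a7 reached 175.8.

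Genes with the most similar pattern were sought by distance in the plane of the 2 log2 TPM values, over the 2 libraries. The nearest to Slc7a11 were Slc12a3 (26 and 4 reads), Grid1 (26 and 4 reads) and Adra2c (23 and 4 reads), all too low for a comparison. For Slc1a4, the gene with the largest difference among those past the filter, the nearest were Sccpdh (log2 ratio -1.31), Rchy1 (-1.19) and Apoo (-1.21), whose reads may be shared with a pseudogene copy, and 10 genes lay within a distance of 0.25. With 2 libraries such likeness reflects a level and a ratio only.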

How the data were processed

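The authors deposited 1 gene table for mm10 (GRCm38) with 24532 named genes. It holds read counts deposited without normalization, FPKM values that the authors scaled by transcript length and fragment number, and TPM values deposited with a library sum of 993247 (E14) and 994155 (E14-Sox2 TA/WT). The submitters' processing notes name bcl2fastq 2.20.0, Trimmomatic, HISAT2 2.1.0 and StringTie; the handling of strand and of reads shared between genes is not given in the sources used here.

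Ratios of TPM, with no pseudocount, were read for genes that reached a TPM of 10 in 1 library or both, and the threshold was 2-fold, as in the study's methods. Exact (Clopper-Pearson) 95% intervals from the read counts were placed on the TPM scale with SciPy 1.17.1, and TPM intervals are exact Poisson. They cover counting error only, since PCR copies are not independent molecules. The interval of the median joins the medians of the lower and of the upper bounds. The read count intervals were tried on simulated counts that held counting error only. This checks the calculation and not the spread between libraries. Because each genotype had 1 library, no test was made.

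Alternatives were other filters, pseudocounts (0.1 and 1), fold thresholds, CPM, TMM (edgeR 4.0.16), median-of-ratios size factors (DESeq2 1.42.0), FPKM, centring on the median of all genes or of the chromosome, TPM without the 10 highest genes, and subtraction of the GC and length trend (median ratio in 20 bins of each property, from GENCODE M21 transcripts that carry the RefSeq IDs, available for 97.7% of genes). Positions are from RefSeq for GRCm38.p6. The members, lists and rules were chosen with earlier results of these data known. All members were named; from the other lists, genes past the filter and 2-fold, the highest and lowest ratio and the highest level were named.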

Additional observations from a re-analysis of the deposited data

How the results depend on the processing

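No paired analysis was possible because each genotype has 1 library, and no library could be left out. Among the transporter genes past the filter, the largest difference was 2.46-fold (Slc1a4). The count of 3 transporter genes more than 2-fold lower was thus 0 at a threshold of 3-fold, beside 1.5% of all genes past the filter. Slc6a9 left this count, which was then 2, with the GC and length trend removed, with a pseudocount of 1, with a TPM of at least 20 or where the whole interval had to lie past 2-fold. Without a filter (Slc7a11) or at 1.5-fold (Slc3a2) it was 4. The share of all genes that were lower also rose, from 4.07% to 13.8% without a filter and to 10.5% at 1.5-fold. No gene was more than 2-fold higher under any alternative. The median log2 ratio of the 10 genes (-0.45) was -0.59 with CPM and with FPKM, -0.57 centred on the chromosome, -0.49 centred on all genes or with the trend removed, and -0.21 with a pseudocount of 1. CPM and FPKM moved the median of all genes from 0.04 to -0.10, and relative to it the 10 genes lay at a like distance. The sign changed for Slc7a5 (0.047) and Slc38a1 (-0.028), in both cases with the trend removed; the cause was not tested. Slc1a4 ran from -1.44 to -1.25, Slc1a5 from -1.38 to -1.03 and Slc3a2 from -0.86 to -0.59. Depth limits Slc7a11 (71 and 12 reads).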

Other observations

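Of 17 amino acid transporters of lysosomes and mitochondria, 11 passed the filter and none differed more than 2-fold, with a median log2 ratio of 0.02. Sfxn1, a mitochondrial serine transporter, was highest (TPM 53.2 and 95.8, log2 ratio 0.85), Slc25a12, a carrier of aspartate and glutamate, was lowest (-0.14), and the related Slc25a13 had the highest mean level (TPM 87.4 and 88.8). Of 28 genes through which mTORC1, the kinase complex that promotes growth, senses amino acids, 27 passed the filter and none differed more than 2-fold. Their median was 0.07, beside 0.08 over all genes past the filter. Of all genes past the filter, 4.07% were more than 2-fold lower and 4.17% more than 2-fold higher. Rragd, one of the Rag GTPases that bring mTORC1 to the lysosome, was highest (0.69), and Sesn1, a leucine sensor related to Sesn2, was lowest (-0.67). Rragd passed the filter through the E14-Sox2 TA/WT library only (TPM 8.98 and 14.5). Lars, which charges leucine on its tRNA, had the highest level (TPM 245.8 and 257.1). None of these values has a replicate check.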
